A study of Mus musculus with 8 samples.

Results

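The Myc, Max and Mxd network was followed through Myc-CaP tumors as 10 genes, Myc, Mycn, Max, Mnt, Mga, Mxi1, Mxd1, Mxd3, Mxd4 and Mlx, out of 38115 genes listed in the count data. They were taken by name and not by their values, and all 10 were found. RNA was sequenced from 8 tumors of the Myc-CaP murine prostate cancer model, with 2 tumors in each of 4 groups: androgen sensitive primary, androgen sensitive metastatic, castrate resistant primary and castrate resistant metastatic. Cells of the Myc-CaP/AS or Myc-CaP/CR line had been placed in the anterior prostate of FVB males, which were intact or castrated by surgery beforehand, so the line and the state of the host cannot be told apart within a phenotype. Ages are not given. Each phenotype rests on tumors of 1 cell line, and nothing in the labels says whether the tumors of a group came from separate mice, so the p-values measure the spread between these samples. The metastases are labelled as matched, without naming the primary tumor each belongs to, and the tumor numbers used here carry no pairing. A primary tumor and its metastasis may therefore share a mouse, in which case the 4 tumors of a phenotype are not independent and the p-values of the comparison of phenotypes may be too small.

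Proteins of this network share a basic helix-loop-helix leucine zipper and bind DNA as dimers. Max is the common partner: with Myc or Mycn it activates genes of growth and ribosome production, and with Mxd proteins, Mnt or Mga it occupies the same DNA element, the E-box CACGTG, and represses. Mlx heads a parallel branch, in which it pairs with the glucose-sensing factors MondoA and ChREBP and also with some Mxd proteins and Mnt. In the prostate, Myc is a known driver of cancer, and the Myc-CaP line was derived from a mouse with a human MYC transgene under an androgen-dependent probasin promoter.

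This transgene limits what the Myc counts can say. Reads were aligned to the mouse genome with up to 2 mismatches, and a read of human MYC could be counted on mouse Myc only where the sequences are that similar. Endogenous Myc and such reads cannot be told apart here, and the transgene itself was not measured. Of all read-length windows of mouse Myc transcripts, 0 of 2715 matched another mouse gene within 2 mismatches.

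The E-box is shown in its surroundings because it is the element that the network's dimers read, including at genes of the network. RefSeq promoters (250 bases before and 50 after each start, GRCm38.p6) were matched for 9 of the 10 members, as 11 promoters, and Myc was not among them. The palindrome CACGTG was found in the promoters of 4 members, which are 4 of 11 promoters, against 7.15% of all 32851 promoters in the table. The capitals mark the E-box in each stretch of 56 bases, read 5′ to 3′ on the gene's strand. Counted from the start, the E-box begins at -3 in Max (chr12:76962221-76962276, minus strand), at -123 in Mnt (chr11:74830776-74830831, plus), at -219 in Mxd4 (chr5:34187899-34187954, minus) and at -40 in Mlx (chr11:101087225-101087280, plus).
Max: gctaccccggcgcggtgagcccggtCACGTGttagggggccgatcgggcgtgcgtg
Mnt: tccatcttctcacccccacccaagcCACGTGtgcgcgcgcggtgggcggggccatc
Mxd4: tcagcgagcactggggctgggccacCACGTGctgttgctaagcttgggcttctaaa
Mlx: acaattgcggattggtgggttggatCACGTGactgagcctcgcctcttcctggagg
A match is a description of these letters, and binding was not measured. Between phenotypes, none of the 4 genes with an E-box had an edgeR adjusted p under 0.05. Max and Mxd4 were higher and Mlx narrowly lower in castrate resistant tumors without overlap of the groups, against 18.9% of all genes without overlap. The groups overlapped for Mnt, and the 4 genes did not share a direction.

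Levels between genes were compared as CPM (counts per 1000000 of the effective library size) per kilobase of exon. Mxd4 stood first by its mean of 19.0 CPM per kilobase ± 3.79 (SD, n = 8). Mlx followed at 14.3 ± 2.67 and Max at 12.5 ± 4.13. Their ranges overlapped between neighbours, with Mxd4 above Mlx in 6 of 8 tumors and Mlx above Max in 5 of 8. A gap then separated these 3 genes from the next: Max was at least 8.87 in every tumor and Mxi1 at most 3.31. Mxi1 (2.67), Mxd3 (2.51), Mnt (1.97), Myc (1.92), Mga (1.21) and Mxd1 (1.19 CPM per kilobase) followed with overlapping ranges between neighbours, and Mycn was last at 0.0363. With the longest transcript as the length, Mlx and Max changed places, as did Mnt and Myc, and Mga and Mxd1. Mouse Myc, named for the oncogene that drives the line, stood at percentile 41.2 of the tested protein-coding genes by mean level per length.

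**Figure D1:**
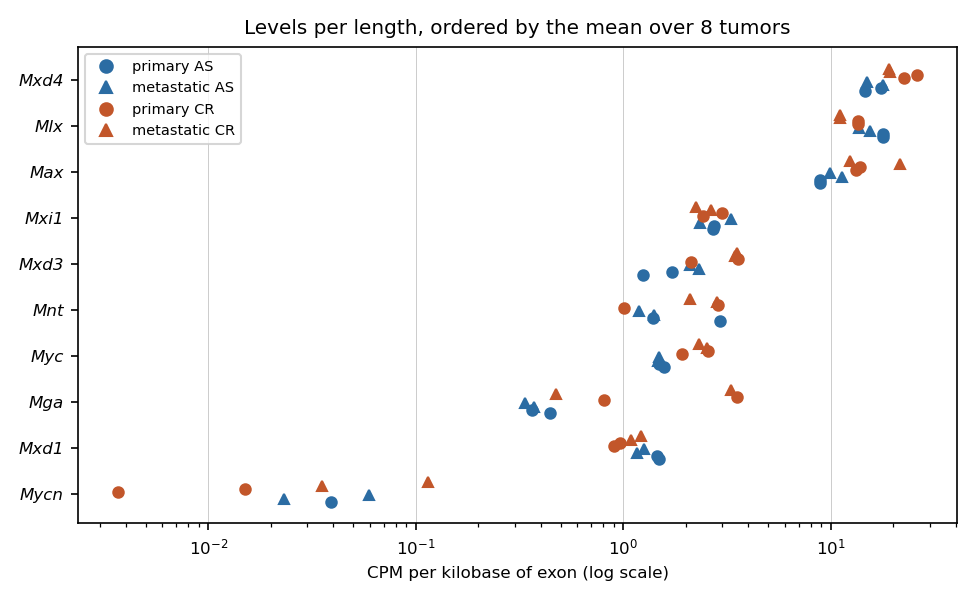
Level of each of the 10 genes in CPM per kilobase of exon (log axis), with 1 point per tumor, ordered by the mean over 8 tumors. Mxd4, Mlx and Max lie between 8.87 and 26.1 in all tumors, the 6 genes from Mxi1 to Mxd1 between 0.337 and 3.56, and Mycn at most at 0.114; the tumor in which Mycn had 0 counts has no point.

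Max transcripts exceeded mouse Myc transcripts in every tumor, by 5.33 to 8.54 times per kilobase of exon. The human MYC transgene was not measured and is not part of this ratio. With the longest transcript as the length, the means were 23.2 CPM per kilobase for Max and 2.23 for mouse Myc. The sum of the 4 Mxd genes (Mxd1, Mxi1, Mxd3 and Mxd4) exceeded Max by 2.09 to 2.63 times in the androgen sensitive tumors. It was 2.10 to 2.41 times Max in 3 castrate resistant tumors and 1.23 times in metastatic CR1, where Max was highest. Mxd4 supplied 69.3% to 80.5% of the Mxd sum per kilobase.

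The first comparison asked which members differed between castrate resistant and androgen sensitive tumors, with primary or metastatic origin kept as a term. Mga was higher in castrate resistant tumors and was the single member past the threshold; Myc, Max and Mxd3 were 1.55 to 1.74 times as high and Mlx lower, each with an adjusted p just above 0.05. The quasi-likelihood test of edgeR, adjusted by Benjamini-Hochberg over 17104 genes, called 1 of the 9 members tested, where it called 12.2% of all genes (6.16% as higher). With the unadjusted p under 0.05 there were 6 members, 5 higher and 1 lower, against 28.8% of all genes (14.3% higher and 14.6% lower). The 4 tumors of each phenotype did not overlap for 5 of the 9 members, with Myc, Max, Mga and Mxd4 higher and Mlx lower, against 18.9% of all genes (9.09% higher and 9.82% lower). The median log2 fold change of the 9 members was 0.41, and that of all genes -0.01. The call count moved with the method: DESeq2 called 5 members (Max, Mga, Mlx, Mxd3 and Myc), against 20.7% of all genes.

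**Figure D2:**
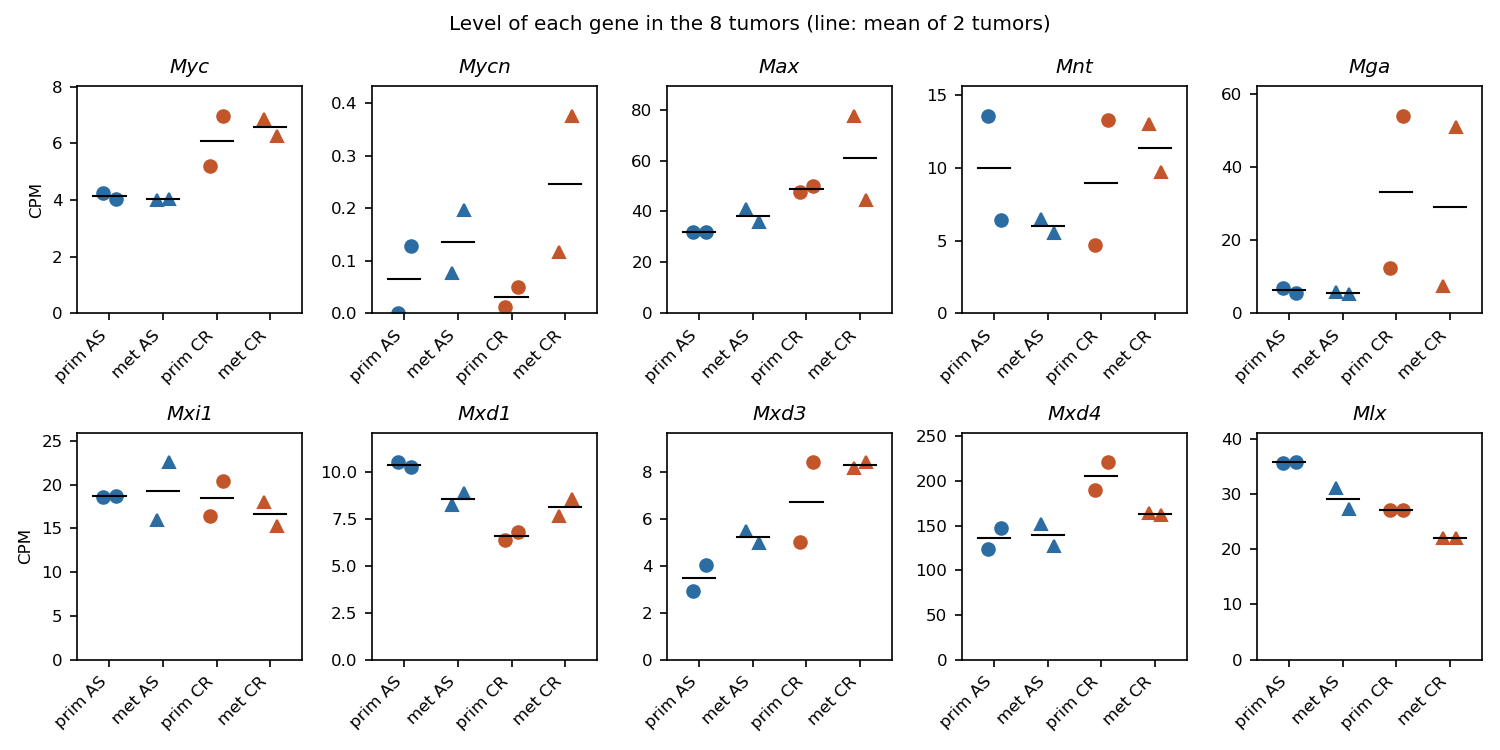
CPM of each gene in the 8 tumors, 2 per group, with the group mean as a line; each panel has its own linear axis starting at 0. The androgen sensitive values of Myc lie within 4.003 to 4.26 CPM and the lowest castrate resistant value is 5.21, and Mga is at 54.1 and 50.9 CPM in a single primary and a single metastatic castrate resistant tumor.

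Mouse Myc, the activator (ENSMUSG00000022346, mm10 chr15:61985391-61990374, plus strand), was measured at 4.26 and 4.03 CPM in primary AS1 and AS2 and at 4.003 and 4.05 in metastatic AS1 and AS2. In castrate resistant tumors it was 5.21 and 6.99 CPM in primary CR1 and CR2, and 6.87 and 6.28 in metastatic CR1 and CR2. The groups did not overlap, and the androgen sensitive values lay closer together than the castrate resistant ones. The means were 4.09 ± 0.117 and 6.34 ± 0.813 CPM (SD, n = 4 each), a log2 fold change of 0.63 (SE 0.19, 95% interval 0.20 to 1.05) with an edgeR adjusted p of 0.0604. These levels rest on 267 to 413 reads per androgen sensitive tumor and 141 to 430 per castrate resistant one. The part of counting error in either spread was not tested. Left out in turn, the 8 tumors gave log2 fold changes of 0.57 to 0.72 and adjusted p-values of 0.0189 to 0.182.

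Mycn, the Myc relative of embryonic and neural tissue (ENSMUSG00000037169, chr12:12936093-12941914, minus strand), was near the limit of detection. Primary AS1 had 0 reads, which allows up to 0.0479 CPM (3 counts, counting error only), and the other tumors had 1 to 20 reads. The highest level was 0.377 CPM in metastatic CR2, from 9 reads. Mycn did not pass the filter on low counts in this comparison, and no difference was detectable at this depth.

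Max, the shared partner (ENSMUSG00000059436, chr12:76937269-76962201, minus strand), was at 32.05 and 31.9 CPM in primary AS1 and AS2, and at 40.9 and 35.8 in the androgen sensitive metastases. It was 47.7 and 50.04 CPM in primary CR1 and CR2, and 77.7 and 44.3 in metastatic CR1 and CR2. Every castrate resistant tumor lay above every androgen sensitive one, and metastatic CR1 stood highest. The log2 fold change was 0.64 (SE 0.18, 95% interval 0.23 to 1.05, adjusted p by edgeR 0.0518).

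Among the Max-binding repressors, Mga differed most. Mga (ENSMUSG00000033943, chr2:119897228-119969581, plus strand) encodes a large protein with a T-box beside its helix-loop-helix domain and is part of a Polycomb repressive complex. It was measured at 6.81 and 5.60 CPM in primary AS1 and AS2 and at 5.67 and 5.17 in the androgen sensitive metastases. In castrate resistant tumors it was 12.4 CPM in primary CR1 and 54.1 in primary CR2, and 7.31 in metastatic CR1 and 50.9 in metastatic CR2. All 4 castrate resistant tumors lay above all androgen sensitive ones, but by very different amounts.

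The log2 fold change of Mga was 2.42 (SE 0.60, 95% interval 1.05 to 3.78, adjusted p by edgeR 0.0351), or 5.34-fold. The mean of the tumors numbered CR2 was 52.5 CPM, 9.03 times the androgen sensitive mean of 5.82, whereas the mean of those numbered CR1 was 9.88 CPM, 1.70 times that mean. Without both CR2 tumors, a setting chosen after the values were seen, the log2 fold change was 0.73 and its edgeR adjusted p 0.118. With the counts of each possible matched pair summed, also chosen after the values were seen, 2 sums stood against 2. In the pairings that join the CR2 tumors Mga was not called (log2 fold changes 2.43 and 2.41, edgeR adjusted p 0.192 and 0.173), and in those that do not it was (1.96 in each, edgeR adjusted p 0.0338 and 0.0172). Which pairing is true is not given. Leaving out 1 tumor at a time, the call was lost in 6 of 8 omissions (each of the 4 androgen sensitive ones, primary CR2 or metastatic CR2), with log2 fold changes of 1.70 to 2.76 over all of them. The CR2 libraries were also the shallowest, at 24909389 and 20905806 counts. They held 1092 and 1216 Mga reads, against 250 to 1027 in the other 6 tumors. The part of depth or of other library differences in these values was not tested.

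The lower CR2 value of Mga was 4.09 times the highest value of the other 6 tumors. Of the 17104 genes tested, 2 had a gap that wide (0.0117%), Mga and Gm10576, the latter at most 52 reads in any tumor. Both the split of the tumors and the width were taken from Mga after its values were seen, so its place was set in advance. Genes without any count in the other 6 tumors could not enter this share. Around Mga, the 5 tested genes on each side were added after its values were seen. Of these 10 neighbours, H3f3c, with at most 1.42 CPM, was called (log2 fold change 1.37, edgeR adjusted p 0.0423); its reads are uncertain, since other genes of histone H3.3 are nearly identical. The 6 neighbours with at least 1 CPM in every tumor, Rtf1, Rpap1, Tyro3, Mapkbp1, Pla2g4b and Ehd4, had CR2 means of 0.694 to 1.52 times their androgen sensitive means, beside 9.03 for Mga. Of those below that level, H3f3c had a ratio of 3.05, Itpka 2.31, Spnb5 0.980 and Gm13999 0.787, all from low counts. Reads shared with other genes were possible for 0.508% of Mga's read-length windows.

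**Figure D3:**
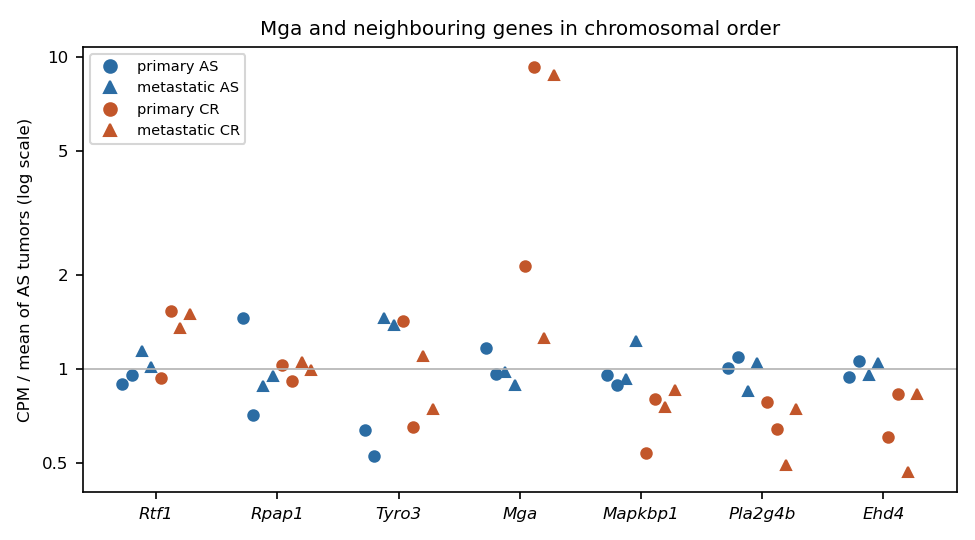
CPM of Mga and its 6 neighbours with at least 1 CPM in every tumor, divided by each gene's mean in the androgen sensitive tumors (log axis), in chromosomal order with 1 point per tumor. Mga is on average 9.03 times that mean in the CR2 tumors, a primary and a metastatic one, while every neighbour stays below 2 times it in all tumors.

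The sequence before the Mga start is given because this gene carried the call. The 250 bases upstream of the RefSeq start (chr2:119896978-119897227, plus strand, GRCm38.p6) held no CACGTG. The capitals mark CGCGTG, the other strand of CACGCG, an E-box variant, which begins at -21; on either strand CACGCG was found in 9.27% of all promoters of 300 bases.
Mga: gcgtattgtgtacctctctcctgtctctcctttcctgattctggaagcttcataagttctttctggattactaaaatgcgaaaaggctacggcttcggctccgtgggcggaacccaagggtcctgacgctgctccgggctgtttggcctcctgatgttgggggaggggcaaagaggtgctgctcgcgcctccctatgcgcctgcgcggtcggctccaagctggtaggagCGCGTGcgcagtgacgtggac

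Mnt, the broadly expressed Max-binding repressor (ENSMUSG00000000282, chr11:74830920-74845725, plus strand), varied within groups. It was 13.6 and 6.44 CPM in primary AS1 and AS2, 6.498 and 5.50 in the androgen sensitive metastases, 4.68 and 13.3 in primary CR1 and CR2, and 13.0 and 9.71 in the castrate resistant metastases. The phenotypes overlapped, and the log2 fold change of 0.38 was smaller than its SE of 0.40.

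The Mxd genes, whose proteins recruit the Sin3 corepressor when bound to Max, did not share a direction. Mxd3, a member associated with dividing cells (ENSMUSG00000021485, chr13:55325168-55329823, minus strand), was 2.94 and 4.05 CPM in primary AS1 and AS2, 5.50 and 4.96 in the androgen sensitive metastases, 5.03 and 8.42 in primary CR1 and CR2, and 8.19 and 8.41 in metastatic CR1 and CR2. Primary CR1 lay inside the androgen sensitive range and the other 3 castrate resistant tumors above it. The log2 fold change was 0.80 (SE 0.23, edgeR adjusted p 0.0518). The summed level of 8 proliferation markers, which include Mki67 and Top2a, ran from 95.3 to 343 CPM in the androgen sensitive group and from 91.6 to 394 CPM in the castrate resistant group, and its part in Mxd3 was not tested.

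Mxd4, the most abundant member (ENSMUSG00000037235, chr5:34173883-34187720, minus strand), was 124, 147, 152 and 127 CPM in primary AS1, primary AS2, metastatic AS1 and metastatic AS2. It was 190 and 221 CPM in primary CR1 and CR2 and 164 and 162 in metastatic CR1 and CR2. The phenotypes did not overlap, and the log2 fold change was 0.41 (SE 0.16, edgeR adjusted p 0.123). Mxd1, which is induced in differentiating cells (ENSMUSG00000001156, chr6:86647042-86669161, minus strand), had its 4 groups in another order. It was 10.5 and 10.3 CPM in primary AS1 and AS2, 8.25 and 8.91 in the androgen sensitive metastases, 6.37 and 6.84 in primary CR1 and CR2, and 7.69 and 8.58 in the castrate resistant metastases. Across phenotypes its log2 fold change was -0.37 (SE 0.18, edgeR adjusted p 0.219). Mxi1, also called Mxd2 (ENSMUSG00000025025, chr19:53310518-53375810, plus strand), lay between 15.3 and 22.6 CPM in all tumors with a log2 fold change of -0.11 (SE 0.17), and its phenotypes overlapped.

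Mlx, the hub of the parallel branch (ENSMUSG00000017801, chr11:101087277-101092207, plus strand), was the member that was lower without overlap. It was 35.7 and 35.8 CPM in primary AS1 and AS2, 31.0 and 27.3 in the androgen sensitive metastases, 27.2 and 27.1 in primary CR1 and CR2, and 22.1 in both castrate resistant metastases. The gap between the phenotypes was narrow, from 27.3 to 27.2 CPM. The log2 fold change was -0.40 (SE 0.12, 95% interval -0.68 to -0.13, edgeR adjusted p 0.0641). Of the read-length windows of Mlx, 12.7% also lie in Psmc3ip, which overlaps it on the opposite strand by 385 bases; how strand entered the counting is not given. Mxd3 shares 105 bases with Prelid1 and Mxi1 194 bases with Gm10197 in the same way.

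**Figure D4:**
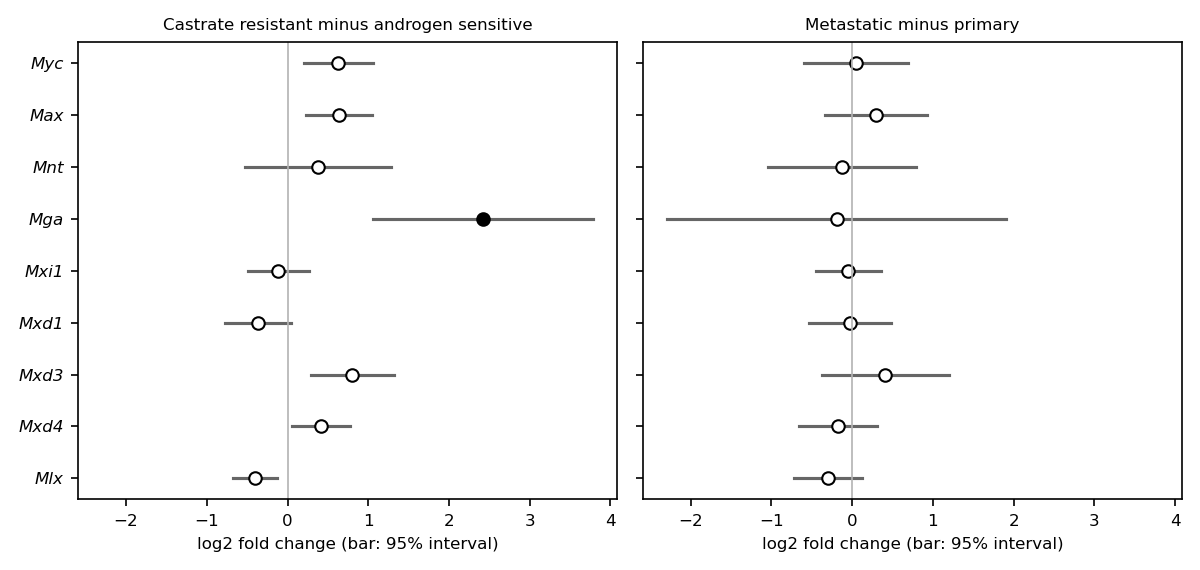
Log2 fold change of the 9 tested members with 95% intervals from the edgeR fits, castrate resistant minus androgen sensitive on the left and metastatic minus primary on the right; the filled point marks an adjusted p under 0.05. The left fit has tumor type as a term, and the right fit has no term for phenotype, so the panels are not alike. On the left Mga is the filled point at 2.42 and the intervals of Myc, Max, Mxd3, Mxd4 and Mlx also leave out 0. On the right, in the fit without phenotype, every interval spans 0.

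The second comparison asked whether members differed between metastatic and primary tumors. None of the 9 tested members was called by edgeR, and in the fit without phenotype none had an unadjusted p under 0.05; over all 17104 genes 0% were called, and 459 (2.68%) had an unadjusted p under 0.05. DESeq2 also called 0 members, with 0% of all genes. Mlx had the smallest p of the members, 0.149 (unadjusted, edgeR), with means of 31.5 ± 5.004 CPM in primary and 25.6 ± 4.37 CPM in metastatic tumors (SD, n = 4 each) and a log2 fold change of -0.29 (SE 0.19). Myc was at 5.12 ± 1.34 and 5.30 ± 1.49 CPM, with a log2 fold change of 0.05 and a 95% interval of -0.59 to 0.69. The widest interval was that of Mga, from -2.29 to 1.90. With phenotype as a covariate, again 0 members and 0% of genes passed the adjusted threshold, and Mlx alone of the 9 had an unadjusted p under 0.05, against 6.7% of genes. In that fit Mlx had a log2 fold change of -0.30 (SE 0.12, unadjusted edgeR p 0.0386, adjusted p 0.726). Its metastases lay below its primary tumors within each phenotype, but this is 2 tumors against 2. The share of all genes with that pattern was not computed, so no weight is put on it. With the possible pairings as a replicate block the unadjusted edgeR p of Mlx was 0.0565 to 0.0738. Myc in the covariate fit had a log2 fold change of 0.04 (SE 0.19).

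No member was called for an interaction of tumor type and phenotype (0 of 10 by edgeR, 0 at an unadjusted p under 0.05, against 2.74% of 18889 genes; DESeq2 called 2 genes in all, 0.0106%, and no member). Mxd1 had the smallest p of the members, 0.129 (unadjusted). Its metastases lay below its primary tumors in the androgen sensitive groups (log2 difference -0.28, SE 0.23) and above them in the castrate resistant groups (0.27, SE 0.235), and the interaction was 0.56 (SE 0.33, edgeR adjusted p 0.964). Within primary tumors, 4 of 10 members had an unadjusted edgeR p under 0.05 between phenotypes, against 14.2% of genes: Mga (log2 fold change 2.39), Mxd3 (0.92), Mxd4 (0.58) and Mxd1 (-0.67). Within metastatic tumors there were 2, Mga (2.37) and Myc (0.67), against 19.9% of genes. No member passed the adjusted threshold in either, where 0.296% and 0.36% of genes did.

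Genes that act with the network were read from fixed lists in the comparison of phenotypes, and 11 genes were called, 10.9% of those tested among 103 listed, against 12.2% of all genes. Of these, 9 were higher and 2 lower in castrate resistant tumors. With single tumors left out the count ran from 1 (without metastatic AS1 or metastatic AS2) to 25 (without primary CR1), and it was 2 without both CR2 tumors. With matched pairs summed, 0 or 1 list genes were called over the 4 pairings. Of 8 other genes of the helix-loop-helix zipper class, 2 rose and 6 were not called. Tfap4, itself a known Myc target that binds another E-box, was 4.58 to 6.07 CPM in androgen sensitive and 9.84 to 13.3 CPM in castrate resistant tumors (log2 fold change 0.99, edgeR adjusted p 0.0146). Usf2, an E-box factor that does not pair with Max, was 15.4 to 17.7 against 21.1 to 24.6 CPM (0.50, edgeR adjusted p 0.0400). For both, every castrate resistant tumor lay above every androgen sensitive one. They were named for passing the threshold on these same values, so this is no separate evidence.

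Of 16 Myc coactivators 1 rose: Ruvbl1, an ATPase of the TIP60 and INO80 chromatin complexes, at 15.3 to 21.8 against 23.0 to 35.1 CPM (log2 fold change 0.79, edgeR adjusted p 0.0225). Of 14 corepressor genes of the Mxd and Mnt branch 1 fell: Rbbp7, a histone-binding subunit also found in other chromatin complexes, at 374 to 520 against 242 to 342 CPM (-0.73, edgeR adjusted p 0.0375). Of 18 genes that control Myc protein turnover 2 rose. These were Fbxo32, a ubiquitin ligase subunit also known from muscle wasting, at 1.28 to 2.54 against 4.23 to 8.04 CPM (1.75, edgeR adjusted p 0.0156), and Set, an inhibitor of the phosphatase PP2A, at 247 to 351 against 352 to 513 CPM (0.51, edgeR adjusted p 0.0473). The groups did not overlap for any of these 4 genes, against 18.9% of all genes without overlap. The 4 were named for passing the threshold on these same values, so this is no separate evidence.

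Of 28 genes commonly induced by Myc, 3 rose and 25 were not called, where edgeR called 12.2% of all genes (6.16% as higher). The list median log2 fold change was 0.10 against -0.01 for all genes. With the unadjusted p under 0.05, 7 were higher and 1 lower, against 14.3% and 14.6% of all genes. DESeq2 called 6 of the 28, all higher, where it called 20.7% of all genes in either direction. Gnl3, a nucleolar GTP-binding protein, was 54.8 to 69.3 CPM in androgen sensitive and 94.1 to 126 CPM in castrate resistant tumors (log2 fold change 0.80, edgeR adjusted p 0.0112), Nop58, a core protein of small nucleolar ribonucleoproteins, was 80.5 to 128 against 132 to 185 CPM (0.72, adjusted p 0.0332), and Npm1, the nucleolar protein nucleophosmin, was 848 to 1559 against 1626 to 2717 CPM (0.95, adjusted p 0.0342). Npm1 and Set have closely similar pseudogenes, so their counts of reads with a single location are uncertain. Over the whole list the log2 fold changes ran from -0.69 to 1.11.

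Of 10 genes commonly repressed by Myc 1 rose: Clu, a secreted chaperone known from castrated prostate, at 35.5 to 71.7 against 117 to 188 CPM (log2 fold change 1.40, edgeR adjusted p 0.0121). Of 5 tested Mlx and MondoA targets 1 fell: Hk2, a hexokinase, at 138 to 254 against 60.8 to 130 CPM (-1.01, edgeR adjusted p 0.0264), while Txnip, a main MondoA target, had a log2 fold change of 0.24 (SE 0.18, unadjusted p 0.214). Near Myc on its chromosome, the long noncoding RNA gene Pvt1 was 5.84 to 6.57 against 5.61 to 9.85 CPM (0.33, edgeR adjusted p 0.357), and Fam84b had -0.44 (adjusted p 0.575); neither passed. Between metastatic and primary tumors 0 list genes were called by edgeR or DESeq2; 5 genes of the Myc protein turnover list had an unadjusted edgeR p under 0.05, where 2.68% of all genes did, and are named after their values were seen. They were the ubiquitin ligase subunit Skp2 (log2 fold change 0.87), the deubiquitinase Usp28 (0.48), the mitotic kinases Aurka (1.03) and Plk1 (1.33), and the PP2A inhibitor Cip2a (1.03), each higher in metastatic tumors with an edgeR adjusted p of 0.997. The summed proliferation markers were 91.6 to 367 CPM in primary and 234 to 394 CPM in metastatic tumors, and their part in these values was not tested.

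**Figure D5:**
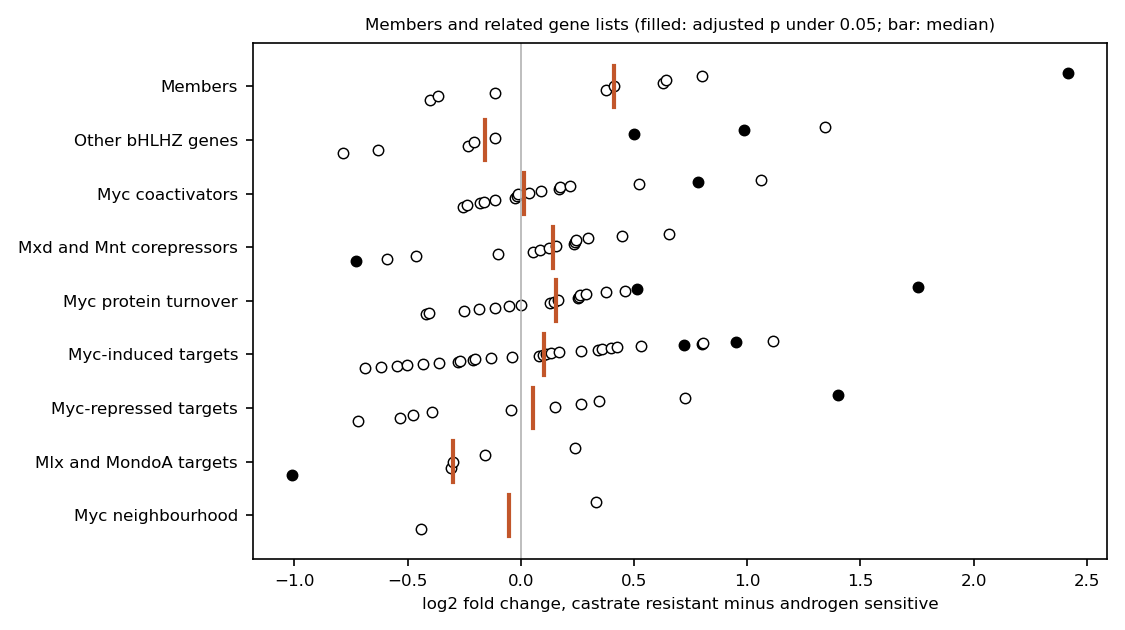
Log2 fold change, castrate resistant minus androgen sensitive, of each tested gene of the members and of 8 related lists, with a bar at each list's median and filled points for an adjusted p under 0.05 (edgeR). The members have 1 filled point, Mga, and the lists 11 in all, of which Rbbp7 and Hk2 lie below 0.

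The genes whose pattern over the 8 tumors was most like a member were ranked by Pearson's r of log2(CPM + 1) among 10296 genes with a mean of at least 5 CPM, as a description. For Myc they were Rpl15-ps3, a processed pseudogene (0.992), 2700060E02Rik (0.985) and Ppp3ca, a calcineurin subunit (0.982). For Mga they were Zfp937 (0.960) and March7 (0.955), both on chromosome 2 as is Mga, and Xdh (0.949). The range of Zfp937 was 3.58 to 9.81 CPM and that of March7 103 to 158 CPM, so neither spread as far as Mga. With a pseudocount of 0.1 the third gene for Mga was Gng5 (0.952). All 8 points share the phenotype difference, and this measure does not set it aside.

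Across the series, total counts ran from 20905806 to 91886163 per tumor, with medians of 72949495.5 (androgen sensitive) and 32748049.5 (castrate resistant). Mitochondrial genes took 4.85% to 28.3% of counts. Of the prostate epithelial markers, Pbsn, Krt18, Epcam and Tmprss2 were under 1 CPM in all tumors, while Foxa1, Hoxb13, Krt8 and Fkbp5 were present. The hepatocyte list summed to 3714 to 10086 CPM in androgen sensitive tumors against 95.1 to 1975 CPM in castrate resistant ones. Almost all of this was Fgb, so the difference in the sum is that of Fgb and not of the list. Ttr was at most 25.1 CPM, in primary AS1. Alb and Apob were at most 3.18 and 1.72 CPM, both in metastatic CR2, and Apoa1 and Cyp3a11 were under 1 CPM. Macrophage sums were 430 to 601 CPM in androgen sensitive and 253 to 563 CPM in castrate resistant tumors. Lung markers summed to under 1 CPM in every tumor. The part of these differences in the members' values was not tested, and in bulk tumors fewer cells of a type and less RNA per cell cannot be told apart. The libraries of the 2 phenotypes carry identifiers from separate number series, whose meaning is not given and which cannot be told apart from phenotype.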

How the data were processed

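RNA of 8 Myc-CaP tumors was analysed. The authors depleted ribosomal RNA, made stranded libraries, sequenced paired reads, aligned them to mm10 with Bowtie, and kept reads with a single location and up to 2 mismatches; the submitters' processing notes also name TopHat2 2.0 and CASAVA 1.8.2. The deposited values are counts per gene, raw and without scaling. The counting tool, annotation release and strand setting are not given in the sources used here. Coordinates and lengths are from GENCODE M21, in which 36343 of the 38115 identifiers were found.

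Counts were fitted in R 4.3.3 with edgeR 4.0.16 (filterByExpr, TMM factors, quasi-likelihood test, Benjamini-Hochberg over all tested genes, threshold 0.05). Phenotype was fitted with tumor type as a term (17104 genes), tumor type alone (17104), and the interaction and the simple effects over 4 groups (18889). CPM uses the effective library size. DESeq2 1.42.0 was an alternative. The alternatives were RLE factors, scaling on protein-coding genes, at least 1 count as the filter, phenotype without or as a covariate, the 4 possible pairings as a block, each tumor left out and, added later, matched pairs summed. The fits were also run on simulated counts of independent tumors, which cannot show the effect of tumors that share a mouse.

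The members and lists were chosen with earlier results of these tumors known. Named were all members, list genes past the threshold (up to 3 per direction, or the smallest p in each direction where none passed) and the 3 genes most like Myc and Mga. Some prostate marker values are not reported here.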

Additional observations from a re-analysis of the deposited data

Results flagged for a closer look

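With 4 tumors in each group, 40 sets of values (10 genes by phenotype and by tumor type) were examined for a tumor far from the other 3, and 4 were found. Chance gives about 1 in 20 for independent values of a single group. Each value entered both kinds of set, and the sets by tumor type mix the phenotypes, so that rate does not strictly hold here. Mga was at 54.1 CPM in primary CR2 among the primary tumors and at 50.9 CPM in metastatic CR2 among the metastatic tumors, each far above the other 3. Mnt was at 13.6 CPM in primary AS1, above the other androgen sensitive tumors, which lay between 5.50 and 6.498 CPM. Mxd3 was at 5.03 CPM in primary CR1, below the other castrate resistant tumors, which lay between 8.19 and 8.42 CPM. No cause was tested for any of these.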

How the results depend on the processing

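The count of members past the threshold between phenotypes was 1 and became 3 with RLE factors or scaling on protein-coding genes, 5 with DESeq2 and 0 without both CR2 tumors. With single tumors left out it ran from 0 to 5: 0 without any 1 of the androgen sensitive tumors or primary CR2, 5 without primary CR1, and 1 without metastatic CR1 (Mga) or metastatic CR2 (Max). The cause was not tested, beyond the smaller number of tumors. Over the same omissions the count of all genes called ran from 481 to 4133, and that of list genes from 1 to 25. Named list genes past the threshold kept their direction under every alternative, but 108 of their values did not pass it, more than did pass. Values of named list genes that kept their status numbered 139, counting those of Pvt1 and Fam84b, which were not called in the main fit. With matched pairs summed, a setting added after seeing the data, the count of members was 0, 1, 0 and 1 over the 4 pairings, with Mga the member called. The filter of at least 1 count moved the median log2 fold change of all genes to 0.11. The directions of the 9 members tested in the main fit held between phenotypes under every alternative except for Mxi1, at -0.19 to 0.0127 with tumors left out. Mycn, which did not pass the main filter, took either sign where it was tested, from -0.29 to 0.23 with matched pairs summed.

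Between metastatic and primary tumors no member was called under any alternative, and log2 values near 0 changed sign: Myc to -0.0067 with at least 1 count, Mnt to 0.0167 and Mxi1 to 0.0739 without both CR2 tumors, and Mxd1 to 0.0064 with phenotype as a covariate. The replicate block was fitted for the 4 possible pairings, since the labels do not give it; Mxd1 came to 0.0045, 0.0053, 0.0046 and 0.0054, and the block changed no call at the adjusted threshold. With tumors left out the ranges were -0.0851 to 0.26 for Myc, -0.38 to 0.0993 for Mnt, -1.70 to 1.08 for Mga, -0.18 to 0.0246 for Mxi1 and -0.15 to 0.0996 for Mxd1.

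For the interaction, Max came to -0.0182 with at least 1 count, Mga to 0.0366 with RLE factors and 0.0338 with DESeq2, and Mlx to 0.0389 with RLE factors, 0.0112 with protein-coding scaling and 0.0391 with DESeq2. With tumors left out the ranges were -0.0683 to 0.33 for Myc, -2.81 to 3.07 for Mycn, -0.51 to 0.39 for Max, -1.98 to 1.34 for Mga, -0.46 to 0.0138 for Mxi1, -0.63 to 0.088 for Mxd3 and -0.16 to 0.0419 for Mlx. No member was called for the interaction under any of these. Depth limits Mycn, with at most 20 reads.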
